A study of Mus musculus with 12 samples.

Results

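Gene expression in the ventral tegmental area (VTA) of 18 months old mice was compared with that of 10 months old mice. The comparison used 8 of the 12 arrays of the series, 4 at each of these ages, and 45037 probe sets, without the manufacturer's controls. All mice were wild type C57 per the labels, and C57BL/6 in the study's methods, the labels name no treatment, and each array held RNA pooled from the VTA of 5 mice, so that single mice are not resolved. The 4 arrays of 2 months old mice entered the fit and the errors, as 3 samples because arrays 3 and 4 differed less than any other pair of arrays of one age and may be 1 sample, but they are not part of the difference. The comparison asks which genes of the region differ between the older ages of the study.

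The VTA lies in the ventral midbrain and holds dopaminergic neurons that project to the nucleus accumbens and the prefrontal cortex and take part in reward and motivation. Dopaminergic neurons make dopamine with tyrosine hydroxylase (Th) and take it back up with the transporter Slc6a3, and they lie among GABAergic and glutamatergic neurons, astrocytes, oligodendrocytes and microglia. Microglia are the resident macrophages of the brain. In ageing tissue they are known to raise genes of phagocytosis, lysosomes and antigen presentation. The region was dissected by hand from thick brain sections, so every cell type of the tissue contributed to each value, and fewer cells of a type and less RNA per cell cannot be told apart in such samples.

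Medians of the log2 values lay between 6.11 and 6.17. Pairs of arrays of the same age correlated at 0.967 to 0.996 over all probe sets, and pairs across the ages at 0.971 to 0.997, so that these ranges nearly coincided. On the first principal component (64.3% of the variance) 10 months array 3 lay with 18 months arrays 2 and 4, apart from the other 5 arrays. Several results are therefore also given without these 3 arrays. Signal at the 3′ end of Actb and Gapdh exceeded that at the 5′ end, a gap that widens as labelling reaches less far along a transcript, by 2.15 ± 0.34 (SD, n = 4) on the 10 months arrays. The gap was 1.98 ± 0.24 (SD, n = 4) on those of 18 months (log2 scale). These ages were chosen for comparison with this gap known to be similar. It is given as a description, and its test is not read as a result. The mean of 24 probe sets for poly-A control RNA was 6.38 ± 0.087 at 10 months and 6.90 ± 0.33 at 18 months, with no overlap. An exact permutation test gave p = 0.0286, the smallest that 70 assignments allow. The adjusted p of that test over 3 control measures was 0.0858, with the 3′ minus 5′ gap counted among the 3 although its similarity was known. The part of the poly-A difference in the differences below was not tested and cannot be told apart from age. A fit with that mean as a covariate called 0 probe sets. In it 1.28% of all genes were higher at an unadjusted p under 0.05, against 3.13% without it. The median SE of a probe set was 0.216 in that fit, against 0.138, so smaller counts there also go with lower precision. Counts in that fit are given beside the lists where they moved by over 1.5 times.

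At an adjusted p under 0.05 and a change over 1.3-fold, 1 of 45037 probe sets was called (0.00222%), by limma with Benjamini-Hochberg adjustment. It was 1419327_at, one of 4 probe sets for Pdxdc1, a gene named after a pyridoxal-dependent decarboxylase domain, and not the brightest of them, so it is named here because it was called and not by the rule for named genes. On the 10 months arrays it lay at 5.22, 5.37, 4.90 and 5.32, and on the 18 months arrays at 7.88, 7.05, 7.90 and 6.80. Every 18 months array was above every 10 months array, and the young arrays lay near those of 10 months, at 5.12 to 5.32. The probe set rose 4.61-fold (log2 change 2.20 ± 0.23 SE, adjusted p = 0.0345, limma). The other 3 probe sets of Pdxdc1 did not follow: their log2 differences were −0.13, −0.18 and −0.32, the last at the brightest, which lay at 10.1, 10.2, 9.90 and 9.96 at 10 months and at 9.65, 9.89, 9.39 and 9.91 at 18 months. The call was lost when 10 months array 1, 2 or 4, 18 months array 1, 2 or 3, or young array 1 or 2 was left out (adjusted p above 0.05 for every probe set in each of these fits, with smallest values of 0.0697 to 0.237), and 2 probe sets were called without 10 months array 3 or 18 months array 4. At the brightest probe set of each gene, 0 of 18193 genes were called by limma, with 1041 at an unadjusted p under 0.05. The smallest adjusted p after that of Pdxdc1 was 0.847.

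**Figure D1:**
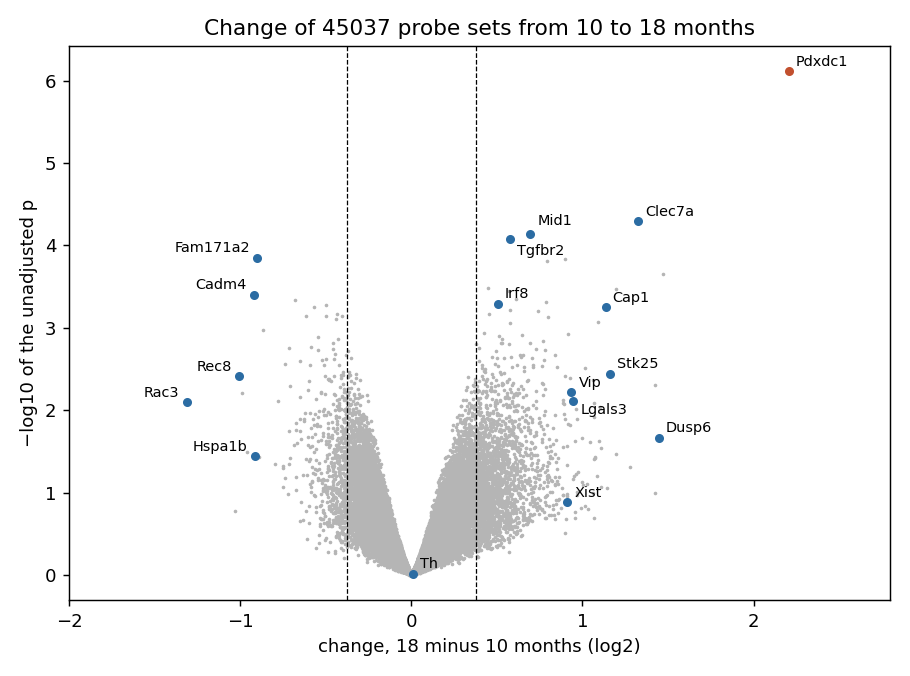
Change from 10 to 18 months on the log2 scale (x axis) against −log10 of the unadjusted p of limma (y axis) for 45037 probe sets, each a grey point; dashed lines mark a 1.3-fold change and named genes are drawn in colour. The red point, a probe set of Pdxdc1 at 2.20, is the 1 call, and Th lies near 0.

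Without adjustment for the number of tests, 2280 probe sets had a p under 0.05 (5.06%), of which 1171 were higher (2.6%) and 1109 lower (2.46%) at 18 months. Of these, 740 were also over 1.3-fold higher (1.64% of those tested) and 265 over 1.3-fold lower (0.588%). Taking genes at their brightest probe set, 570 of 18193 were higher (3.13%) and 471 lower (2.59%) at that p, or 1041 in all (5.72%). With the fold limit these were 339 (1.86%) and 144 (0.792%). The total hung on single arrays. It was 8800 without 10 months array 3, 937 without 10 months array 2, 1466 without 10 months array 4 and 1359 without 18 months array 4. The share of all genes higher at that p moved as well. It was 9.94% without 10 months array 3, 4.63% without 18 months array 3 and 1.31% to 2.44% without any other array of these ages. Without the 3 arrays that stood apart it was 4%. Counts of list members with arrays left out are to be read beside these shares. All 4 arrays of one age lay outside the range of the other for 1228 probe sets (2.73%), 500 on the higher side (1.11%) and 728 on the lower (1.62%). For genes these were 247 (1.36%) and 261 (1.43%).

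The data bounded how far the measured value of a gene could have moved. The median SE of a gene's log2 change was 0.142, and the median size of the change was 0.124. The 95% interval of the change lay within 1.3-fold either way for 33.6% of the 18193 genes, within 1.5-fold for 73.5% and within 2-fold for 95.7%. For most genes a change of 2-fold was therefore outside the interval, and for most a change of 1.3-fold was not. The median gene lay 0.036 lower on the log2 scale at 18 months, and 41.8% of genes were higher by any amount. Both values differed with brightness. Of 4 groups of genes of near equal size by level, the dimmest had a median change of −0.078 with 24.3% of genes higher, and the brightest 0.037 with 55.9%. The dimmest, at levels of 2.70 to 5.47, also had the smallest median SE, 0.121 against 0.143 to 0.160 in the others. The shares within these fold limits include such dim genes, whose narrow intervals may not bound the change of the transcript.

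The intervals of age can be set side by side, although they share the 10 months arrays. From 2 to 10 months, 613 of 45037 probe sets were called (1.36%). The gap between 3′ and 5′ signal was 3.29 to 3.63 on the young arrays, above every array of the older ages (1.64 to 2.44), and its part in the changes from 2 to 10 months given here and below was not tested. The test of the difference between both intervals, the change from 10 to 18 months minus that from 2 to 10 months, called 0 probe sets at an adjusted p under 0.05 by limma, and 2463 had an unadjusted p under 0.05 (5.47%; 1002 genes, 5.51%). A smaller count in the later interval is thus not backed by a called difference for any single probe set. Th, named whatever its value, lay at 12.68, 12.99, 13.30 and 13.35 at 2 months, at 14.01, 13.81, 13.78 and 13.75 at 10 months and at 13.82, 13.87, 13.86 and 13.83 at 18 months. The older ages overlapped and the young arrays lay below both. From 10 to 18 months Th gave a log2 difference of 0.0069 ± 0.13 SE (95% interval −0.27 to 0.29). From 2 to 10 months its change was 0.84 ± 0.14 SE (adjusted p = 0.0307, limma), and the difference of the changes was −0.83 ± 0.23 SE with an adjusted p of 0.898.

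The gene with the smallest p at its brightest probe set was Clec7a, which encodes dectin-1, a receptor for fungal glucans on myeloid cells. Its values were 6.79, 7.10, 6.31 and 6.74 at 10 months and 8.60, 7.99, 7.86 and 7.80 at 18 months. No array of one age entered the range of the other, and the highest value came from 18 months array 1. The difference was 1.33 ± 0.21 SE on the log2 scale, or 2.51-fold (95% interval 0.86 to 1.79; adjusted p = 0.847, limma), which missed the threshold. It had been 0.72 ± 0.23 SE from 2 to 10 months (adjusted p = 0.144).

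Clec7a belongs to a list of 31 genes of activated microglia and macrophages, of which 29 were measured. Of these, 12 were higher at 18 months at an unadjusted p under 0.05 (41.4%, against 3.13% of all genes) and 0 were lower, and none was called. The median log2 change of the 29 genes was 0.24, against −0.036 over all genes. For 8 of the 29 all 18 months arrays lay above all 10 months arrays, against 1.36% of genes, and for 0 below. The mean level of the list was 7.98, 8.18, 7.85 and 8.09 on the 10 months arrays and 8.55, 8.31, 8.33 and 8.22 on the 18 months arrays. These means did not overlap, and the nearest arrays were 10 months array 2 and 18 months array 4. The count was 9 without the 3 arrays that stood apart, 7 without 10 months array 1 and 4 with the poly-A covariate, where the median was 0.30. Of all genes 4%, 2.44% and 1.28% were higher in these fits.

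**Figure D2:**
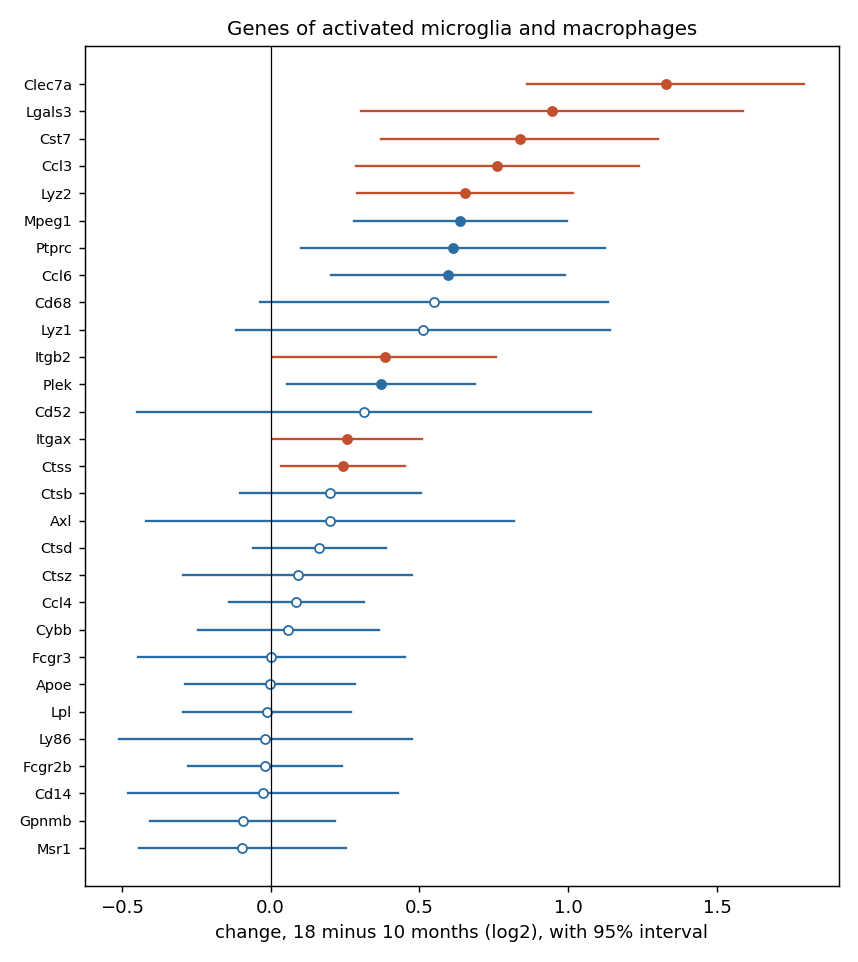
Log2 change from 10 to 18 months with its 95% interval (x axis) for the 29 measured genes of activated microglia and macrophages (y axis); filled points have an unadjusted p under 0.05 and red marks genes whose 18 months arrays all lay above the 10 months arrays. Clec7a leads at 1.33, 12 points are filled, and Apoe, Fcgr3 and Cd14 lie near 0.

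After Clec7a, the members with a difference above 0.6 included lysosomal and secreted products of phagocytes. Lyz2, a lysozyme of macrophages with a close copy in Lyz1, lay at 7.62, 8.12, 7.51 and 7.97 at 10 months and at 8.80, 8.38, 8.51 and 8.14 at 18 months, a difference of 0.65 ± 0.17 SE. The ages only just separated, by 10 months array 2 and 18 months array 4. Cst7, a cystatin that inhibits lysosomal cathepsins, lay at 4.72, 4.77, 4.20 and 4.67 and then at 6.01, 4.88, 5.45 and 5.36, a difference of 0.84 ± 0.21 SE. Its 18 months arrays spread widely, with array 2 close to the younger age. Lgals3, the lectin galectin-3 of phagocytes, gave 4.20, 4.41, 4.16 and 4.84 against 6.27, 5.05, 5.16 and 4.92, a difference of 0.95 ± 0.29 SE to which 18 months array 1 gave the most. The chemokines Ccl3 (0.76 ± 0.22 SE) and Ccl6 (0.60 ± 0.18 SE), the pore-forming protein Mpeg1 of phagocytes (0.64 ± 0.16 SE), the pan-leukocyte phosphatase Ptprc (0.61 ± 0.23 SE), the integrin chains Itgb2 (0.38 ± 0.17 SE) and Itgax (0.26 ± 0.11 SE), the platelet and leukocyte protein Plek (0.37 ± 0.14 SE) and the protease cathepsin S, Ctss (0.24 ± 0.10 SE), were the others at that p. A second probe set of Ptprc gave −0.11, and one of Ccl6 gave 0.34. The 3 highest values of Ptprc (7.66, 8.03 and 7.91) were on the 3 arrays that stood apart, with 7.63 on 18 months array 1 next.

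Other members gave differences near 0. They included the lipid carrier Apoe (−0.0011 ± 0.13 SE), the immunoglobulin receptor Fcgr3 (0.0024 ± 0.21 SE), the endotoxin co-receptor Cd14 (−0.025 ± 0.21 SE) and the glycoprotein Gpnmb (−0.093 ± 0.14 SE). A separate list of homeostatic microglia, the genes by which resting microglia are known, had 19 measured members, with 1 higher and 0 lower and a median change of 0.025. With the poly-A covariate 0 were higher. The median was 0.15 without the 3 arrays that stood apart, and ran from −0.12 with 3 lower (without 10 months array 3) to 0.087 (without 10 months array 2) with 1 array left out. The 1 was P2ry12, a purine receptor through which microglial processes sense ATP, at 0.53 ± 0.21 SE. Tmem119 (−0.10 ± 0.13 SE), Cx3cr1 (0.0035 ± 0.18 SE) and Csf1r (−0.27 ± 0.21 SE), the receptor for the growth factor on which microglia depend, did not pass that p. The difference between the median of the activated and that of the homeostatic genes was not tested.

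Irf8, a transcription factor that macrophages and microglia need, lay outside the lists and was among the 10 genes higher with the smallest p. It was at 7.16, 7.16, 6.89 and 7.09 at 10 months and at 7.51, 7.68, 7.47 and 7.66 at 18 months. The ages were apart on all 8 arrays and the values within an age were close. The difference was 0.50 ± 0.11 SE (adjusted p = 0.847, limma), and a weaker probe set gave 0.085. Tgfbr2, the type 2 receptor for transforming growth factor beta, lay at 8.92, 8.78, 8.99 and 9.08 and then at 9.51, 9.55, 9.54 and 9.47. The 18 months arrays lay close together and none reached down to the younger age, with a difference of 0.58 ± 0.098 SE. Both weaker probe sets of Tgfbr2 differed the opposite way (−0.11 and −0.10).

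**Figure D3:**
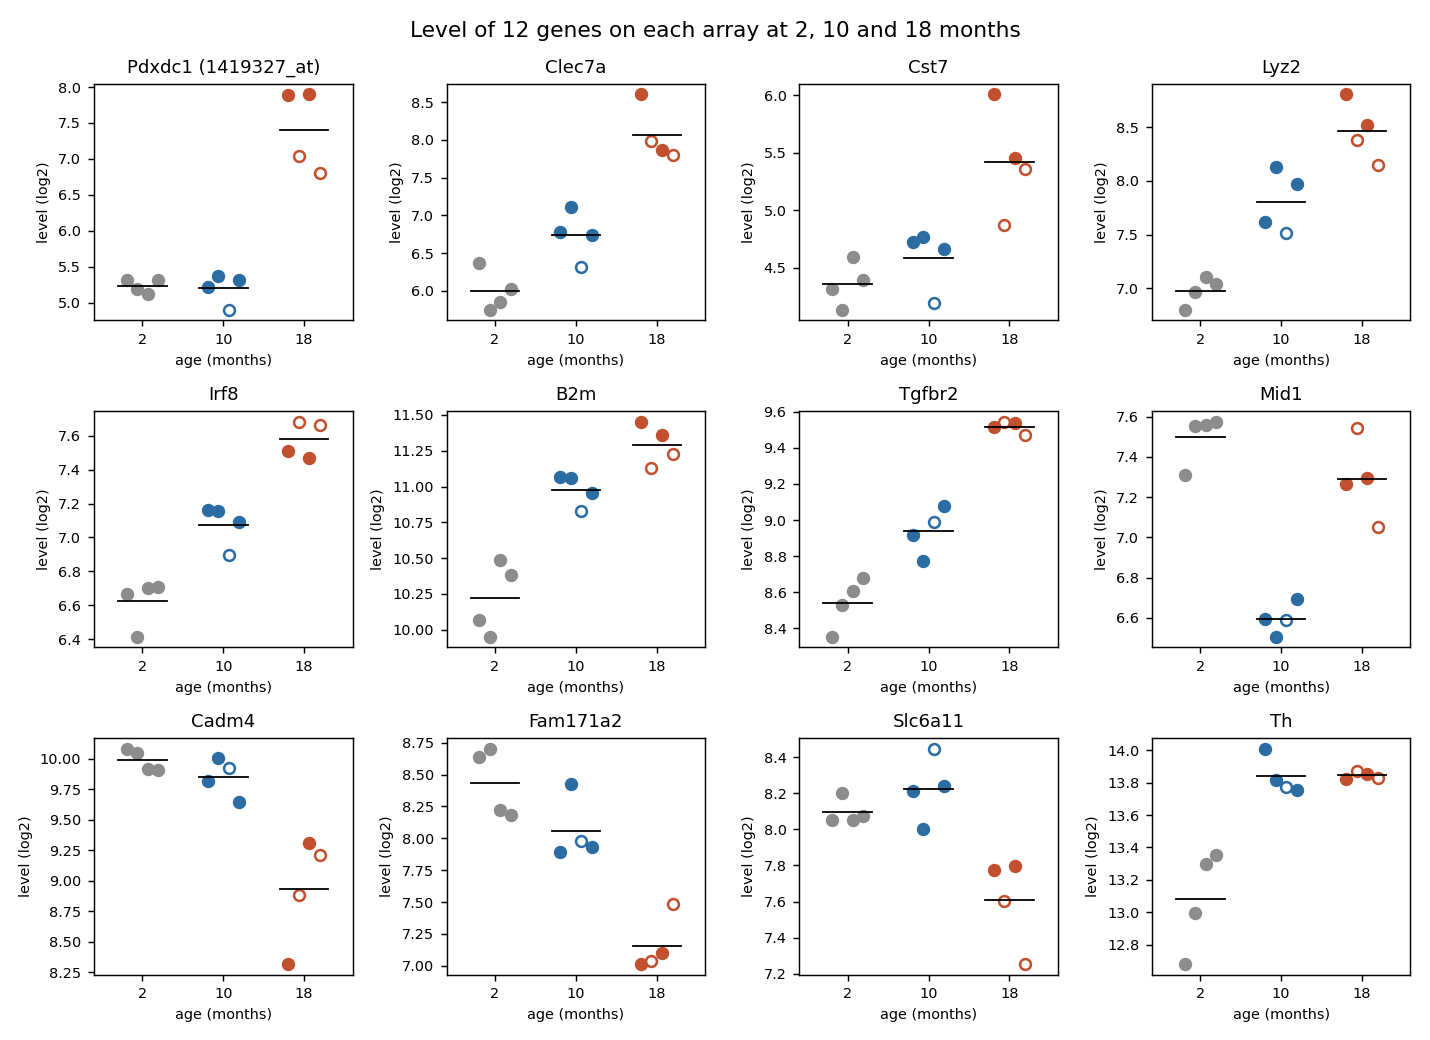
Level on the log2 scale (y axis) of 12 genes on each array at 2, 10 and 18 months (x axis); points are arrays, bars the mean of 4 arrays, and open points the 3 arrays that stood apart on the first component. Clec7a, Irf8 and Tgfbr2 lie higher at 18 than at 10 months on every array, Cadm4 and Fam171a2 lower, and Th lies near 13.8 at both ages.

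Antigen presentation and interferon genes gave smaller differences. B2m, which pairs with the heavy chains of MHC class I to carry peptides to the cell surface, lay at 11.07, 11.06, 10.83 and 10.96 at 10 months and at 11.45, 11.13, 11.36 and 11.23 at 18 months. The ages did not overlap, though 10 months array 1 and 18 months array 2 were close, and the difference was 0.32 ± 0.12 SE, with 0.43 ± 0.12 SE at its other probe set. The heavy chains H2-D1 (0.41 ± 0.20 SE) and H2-K1 (0.38 ± 0.18 SE), near copies of each other that probes may not tell apart, lay on the same side with wider errors. Of 10 measured genes of this pathway 2 were higher at an unadjusted p under 0.05 (20%, against 3.13% of all genes), B2m and its activator Nlrc5. The 4 lowest were Psmb8, Tapbp, Psmb10 and Tap2 (−0.22 to −0.15), which cut peptides or load them. Without the 3 arrays that stood apart 1 was higher and 1 lower, and 4 were higher without 18 months array 2. Of all genes 4% and 1.93% were higher in these fits. Of 17 measured interferon-response genes 15 had a positive difference (88.2%, against 41.8% of all genes), with a median of 0.18. Of the 17, 2 were higher at an unadjusted p under 0.05 (11.8%, against 3.13% of all genes), Ifit3 and Irf9. Ifit3, which binds viral RNA with its relatives, was at 8.21, 8.13, 8.33 and 8.28 and then at 8.50, 8.49, 9.27 and 9.21. Arrays 3 and 4 of 18 months stood well above the other 6, and the difference was 0.63 ± 0.20 SE. The median of the list was 0.030 without 18 months array 3, on which its mean level was highest, and 0.34 without the 3 arrays that stood apart. With the poly-A covariate 10 of the 17 were higher, against 1.28% of all genes, and the median was 0.64. With 1 array left out 1 to 4 were higher. The 4 came without 18 months array 2, where 1.93% of all genes were higher. The 1 came without 10 months array 1 or 18 months array 1 or 3, where 2.44%, 2.36% and 4.63% were. Trim30a, an interferon-induced gene with close copies beside it, gave 5.85, 6.04, 6.19 and 5.94 against 6.55, 6.37, 6.50 and 6.43, a difference of 0.46 ± 0.10 SE, with −0.053 at its other probe set.

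Promoters of 4 of these genes are shown for the letters through which such genes are known to be regulated. Each run holds 250 bases before the start of transcription on the strand of the gene, from RefSeq on GRCm38.p6. Capitals mark GAAA followed by any 2 bases and GAAA again, on either strand, the core of the interferon-stimulated response element, in B2m (chr2:122147437-122147686), Trim30a (chr7:104465194-104465443) and Ifit3 (chr19:34583279-34583528), and GAGGAA, the core letters of sites for the myeloid factor PU.1, in Clec7a (chr6:129472780-129473029). Of 32851 promoters of the same length, 2.98% hold the first motif and 23.3% the second, on either strand. GAGGAA also occurs in Ifit3, uncapitalised, and at 1 place there shares letters with the first motif. Clec7a and Trim30a have 2 starts each in the annotation, of which the first that holds the marked motif is shown.
B2m: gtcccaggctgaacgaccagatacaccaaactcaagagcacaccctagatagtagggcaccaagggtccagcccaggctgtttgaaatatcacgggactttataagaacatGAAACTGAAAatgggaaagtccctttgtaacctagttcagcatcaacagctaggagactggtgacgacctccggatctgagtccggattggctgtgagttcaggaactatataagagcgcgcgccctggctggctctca
Trim30a: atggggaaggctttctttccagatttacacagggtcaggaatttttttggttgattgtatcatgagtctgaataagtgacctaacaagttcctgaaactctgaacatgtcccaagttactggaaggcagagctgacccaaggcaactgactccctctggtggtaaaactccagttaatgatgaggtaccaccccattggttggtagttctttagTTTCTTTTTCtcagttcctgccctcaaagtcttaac
Ifit3: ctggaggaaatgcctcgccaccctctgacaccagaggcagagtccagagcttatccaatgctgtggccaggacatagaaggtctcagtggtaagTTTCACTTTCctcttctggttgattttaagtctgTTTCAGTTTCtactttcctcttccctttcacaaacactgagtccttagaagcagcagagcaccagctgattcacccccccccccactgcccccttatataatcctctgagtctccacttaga
Clec7a: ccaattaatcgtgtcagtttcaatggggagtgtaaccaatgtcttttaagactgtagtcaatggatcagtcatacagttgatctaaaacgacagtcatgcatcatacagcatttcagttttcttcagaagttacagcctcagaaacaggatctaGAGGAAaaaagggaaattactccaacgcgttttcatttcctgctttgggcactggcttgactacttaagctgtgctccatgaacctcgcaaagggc
GAGGAA begins 96 bases before the start in Clec7a, and the first motif 139 in B2m, 36 in Trim30a, and 156 and 122 in Ifit3. Promoters were matched for 13 of the 17 measured interferon-response genes, and 6 of the 13 (46.2%) hold it. For the activated microglia list 22 of 29 genes were matched, and 9 of the 22 (40.9%) hold GAGGAA. A gene of a list was counted if any of its annotated starts held the motif. The shares over all promoters count each start alone, so the shares of the lists are not directly comparable with them. These are matches of letters, and nothing in the arrays measured binding.

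The dopaminergic neurons of the region showed no called difference. Slc6a3, the dopamine transporter, lay at 14.08, 14.00, 14.07 and 13.94 at 10 months and at 14.14, 14.18, 14.07 and 14.11 at 18 months. The arrays overlapped, and the 95% interval of the difference ran from −0.09 to 0.28 on the log2 scale. The highest value on an array of these ages was 14.61 to 14.69. Intervals of genes this bright, Th among them, may not bound the change of the transcript. Of 20 measured dopaminergic markers 0 were higher and 2 lower (10%) at an unadjusted p under 0.05, with a median of 0.053. Of all genes 3.13% were higher and 2.59% lower. The 2 were transcription factors that specify these neurons in development, En1 (−0.25 ± 0.10 SE) and Lmx1a (−0.44 ± 0.16 SE). Lmx1a was dim, at 5.04, 5.10, 4.67 and 4.87 and then at 4.82, 4.13, 4.69 and 4.29, and its arrays overlapped. Of 12 genes that mark VTA over neighbouring dopaminergic neurons, 2 were higher at that p (16.7%, against 3.13% of all genes) and 0 lower. The 2 were the neuropeptides Vip and Adcyap1. Vip, the vasoactive intestinal peptide, gave 7.38, 8.35, 7.47 and 8.15 against 9.30, 9.11, 8.59 and 8.08, where 18 months array 4 fell among the 10 months values. Its difference was 0.94 ± 0.28 SE, and that of Adcyap1 was 0.51 ± 0.23 SE. Calb1, a calcium-binding protein of VTA neurons, was at 0.14 ± 0.14 SE. The median of these 12 genes was 0.065, with 8 positive. Of 11 measured genes that mark dopaminergic neurons of the neighbouring substantia nigra instead, 1 was higher and 0 lower at that p. Their median was 0.10, with 7 positive, and the 1, Kcns3, is given with the remaining genes below. The difference between these lists was not tested.

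Of 34 measured neurotransmitter receptors 5 were higher and 0 lower at an unadjusted p under 0.05, against 3.13% and 2.59% of all genes: the GABA receptor subunits Gabra4 (0.53 ± 0.19 SE) and Gabrg1 (0.44 ± 0.15 SE), the nicotinic subunit Chrna7 (0.41 ± 0.16 SE) and the glycine receptor subunits Glra3 (0.38 ± 0.15 SE) and Glrb (0.27 ± 0.10 SE). The median of the list was 0.082. Without 10 months array 2 it was 0.0017, with 17 of the 34 positive and 1 higher. The count was 8 without 10 months array 3, 3 without 10 months array 1 or 4 or 18 months array 1 or 2, and 1 with the poly-A covariate, and without the 3 arrays that stood apart 6 were higher and 1 lower. Of all genes 9.94% were higher without 10 months array 3, 1.28% with the poly-A covariate and 4% without the 3 arrays. Gabrg1 lay at 9.68, 9.14, 9.66 and 9.71 and then at 10.14, 10.02, 9.93 and 9.86, so that 10 months array 2 was low and the ages still did not meet. A second probe set of Gabrg1 gave 1.06 ± 0.30 SE. Second probe sets of Gabra4, Chrna7 and Glra3 gave 0.16, −0.011 and −0.11. The protocadherin beta genes, clustered cadherins that give neurons a surface identity, had 21 measured members. Of these, 18 had a positive difference (85.7%, against 41.8% of all genes), with a median of 0.18. At that p 5 were higher (23.8%, against 3.13% of all genes) and 0 lower. With the poly-A covariate 1 was higher, 14 were positive and the median was 0.050. Pcdhb21 was at 5.73, 5.32, 6.01 and 5.72 at 10 months and at 6.30, 6.32, 6.27 and 6.19 at 18 months. Its later arrays agreed closely and lay above the earlier, a difference of 0.58 ± 0.13 SE, and Pcdhb7, Pcdhb17, Pcdhb9 and Pcdhb8 were the others. The mean level of this list was 6.37, 6.20, 6.52 and 6.33 against 6.52, 6.80, 6.45 and 6.70, highest on 18 months arrays 2 and 4 and, at 10 months, on array 3. Without these 3 arrays the list's median was 0.090 and 4 were higher. The count was 9 without 10 months array 3 and 8 without 18 months array 1 or 3. Of all genes 9.94%, 2.36% and 4.63% were higher in these fits.

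Of 14 measured astrocyte genes 11 had a positive difference (78.6%, against 55.9% in the brightest group of genes). Their median was 0.15, against 0.037 in that group and −0.036 over all genes. The 1 at an unadjusted p under 0.05 was Slc1a3, a glutamate transporter, at 0.49 ± 0.20 SE, while 5 other probe sets of it ran from −0.10 to 1.07. Of 16 measured genes of reactive astrocytes 1 was higher and 0 lower, Fbln5 of elastic fibres (0.64 ± 0.16 SE, with no overlap of the ages). A second probe set of Fbln5 gave −0.16. Slc6a11, another transporter of astrocytes, which is in neither list, differed the opposite way and is given with the lower genes. Gfap, the filament of reactive astrocytes, was at 9.25, 10.27, 8.31 and 8.67 and then at 10.16, 9.54, 9.03 and 9.17. The ages overlapped widely, and its difference of 0.35 ± 0.38 SE was smaller than its error. Other probe sets of Gfap gave −0.047 and −0.022. Mbp, the myelin basic protein, was at 14.52, 14.56, 14.47 and 14.52 and then at 14.53, 14.47, 14.50 and 14.49. The ages overlapped, with a 95% interval of the difference from −0.19 to 0.16. These levels were close to the highest on each array (14.61 to 14.69), so the interval may not bound the change of the transcript. Of 14 measured myelin genes 1 was higher, Aspa (0.28 ± 0.11 SE), an enzyme that splits N-acetylaspartate in oligodendrocytes, and 0 lower.

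On the lower side, the gene with the smallest p was Fam171a2. Its values were 7.89, 8.43, 7.98 and 7.93 at 10 months and 7.01, 7.04, 7.10 and 7.48 at 18 months. The ages lay well apart, with a difference of −0.90 ± 0.16 SE (adjusted p = 0.847, limma), but its weaker probe sets gave −0.11 and 0.037. Cadm4, an adhesion molecule at contacts of axons with glia, lay at 9.82, 10.01, 9.92 and 9.65 and then at 8.32, 8.88, 9.31 and 9.21, a difference of −0.92 ± 0.19 SE in which 18 months array 1 was lowest. Slc6a11, the GABA transporter GAT-3 of astrocytes, gave 8.21, 8.005, 8.45 and 8.24 against 7.77, 7.60, 7.80 and 7.26. All 18 months arrays were below all 10 months arrays, and the difference was −0.62 ± 0.14 SE. Psmd13, a subunit of the proteasome's regulatory particle, was at −0.55 ± 0.14 SE and a second probe set of it at −0.45 ± 0.13 SE, with −0.10 and 0.13 at the others. Akt1s1, an inhibitor within the growth-controlling complex mTORC1, was at −0.65 ± 0.17 SE. Camk2a, a kinase of excitatory synapses, gave 9.32, 9.59, 9.12 and 9.75 against 8.91, 9.11, 9.10 and 8.71, a difference of −0.49 ± 0.16 SE with the ages only just apart, and its 5 weaker probe sets ran from −0.18 to 0.077.

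Of 19 measured genes of the cell cycle 15 had a negative difference, with a median of −0.12. By sign 21.1% were higher, against 41.8% of all genes and 36.9% in the group of genes of like level. At an unadjusted p under 0.05, 3 were lower, against 2.59% of all genes, and 0 higher. They were Ccnd2, a cyclin of the G1 phase, Bub1b, a kinase of the spindle checkpoint, and Mcm5, a subunit of the replicative helicase. Ccnd2 was at 7.73, 7.51, 7.34 and 7.31 and then at 6.83, 6.97, 7.16 and 6.94. The ages did not overlap, and the difference was −0.50 ± 0.13 SE, while 6 weaker probe sets of it ran from −0.35 to 0.038. Bub1b was at −0.60 ± 0.17 SE and Mcm5 at −0.48 ± 0.17 SE. Weaker probe sets gave −0.24 and −0.16 for Bub1b and −0.00048 and 0.17 for Mcm5. The mean level of the list was 7.08, 7.16, 6.95 and 7.05 at 10 months and 6.91, 6.93, 6.91 and 6.92 at 18 months, and the count was 6 without 10 months array 3 and 1 with the poly-A covariate. Without 10 months array 3, 19.5% of all probe sets passed that p in either direction, against 5.06% with it. Sox11, a factor of immature neurons, was at −0.55 ± 0.19 SE, while 5 other probe sets of it ran from −0.32 to 0.74.

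Over all 56 lists, which hold 908 different measured genes and overlap, 56 genes were higher (6.17%) and 14 lower (1.54%) at an unadjusted p under 0.05, against 3.13% and 2.59% of all genes, and 0 were called at the brightest probe set by limma. Of the 52 measured genes of an aged-brain signature that the study drew from published sets of other samples, 12 were higher and 1, Sox11, lower. Of 59 measured genes that it listed as higher at 18 than at 2 months in the neighbouring substantia nigra pars compacta (SNpc), 16 were higher and 0 lower, with a median of 0.28. With the poly-A covariate 4 of the 52 and 3 of the 59 were higher. Without the 3 arrays that stood apart 12 and 16 were higher and 1 and 2 lower. Without 10 months array 1 or 18 months array 4 the 16 became 11. These lists share 14 genes each with the activated microglia list, which gave 8 of the 12 and 7 of the 16. Outside those shared genes 4 of 38 (10.5%) and 9 of 45 (20%) were higher. The latter include Cyp2e1, an oxidising enzyme of the endoplasmic reticulum, at 6.10, 6.42, 5.89 and 5.69 and then 7.04, 6.80, 6.91 and 6.50, and Abca1, a cholesterol exporter, at 10.09, 9.88, 10.12 and 10.15 and then 10.75, 10.45, 10.29 and 10.52. Neither gene's ages overlapped at these probe sets. Weaker probe sets of Abca1 gave −0.087 and −0.078, and Cyp2e1 had no other. Of the 29 measured genes that the study listed as lower in SNpc, 0 were higher and 0 lower.

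**Figure D4:**
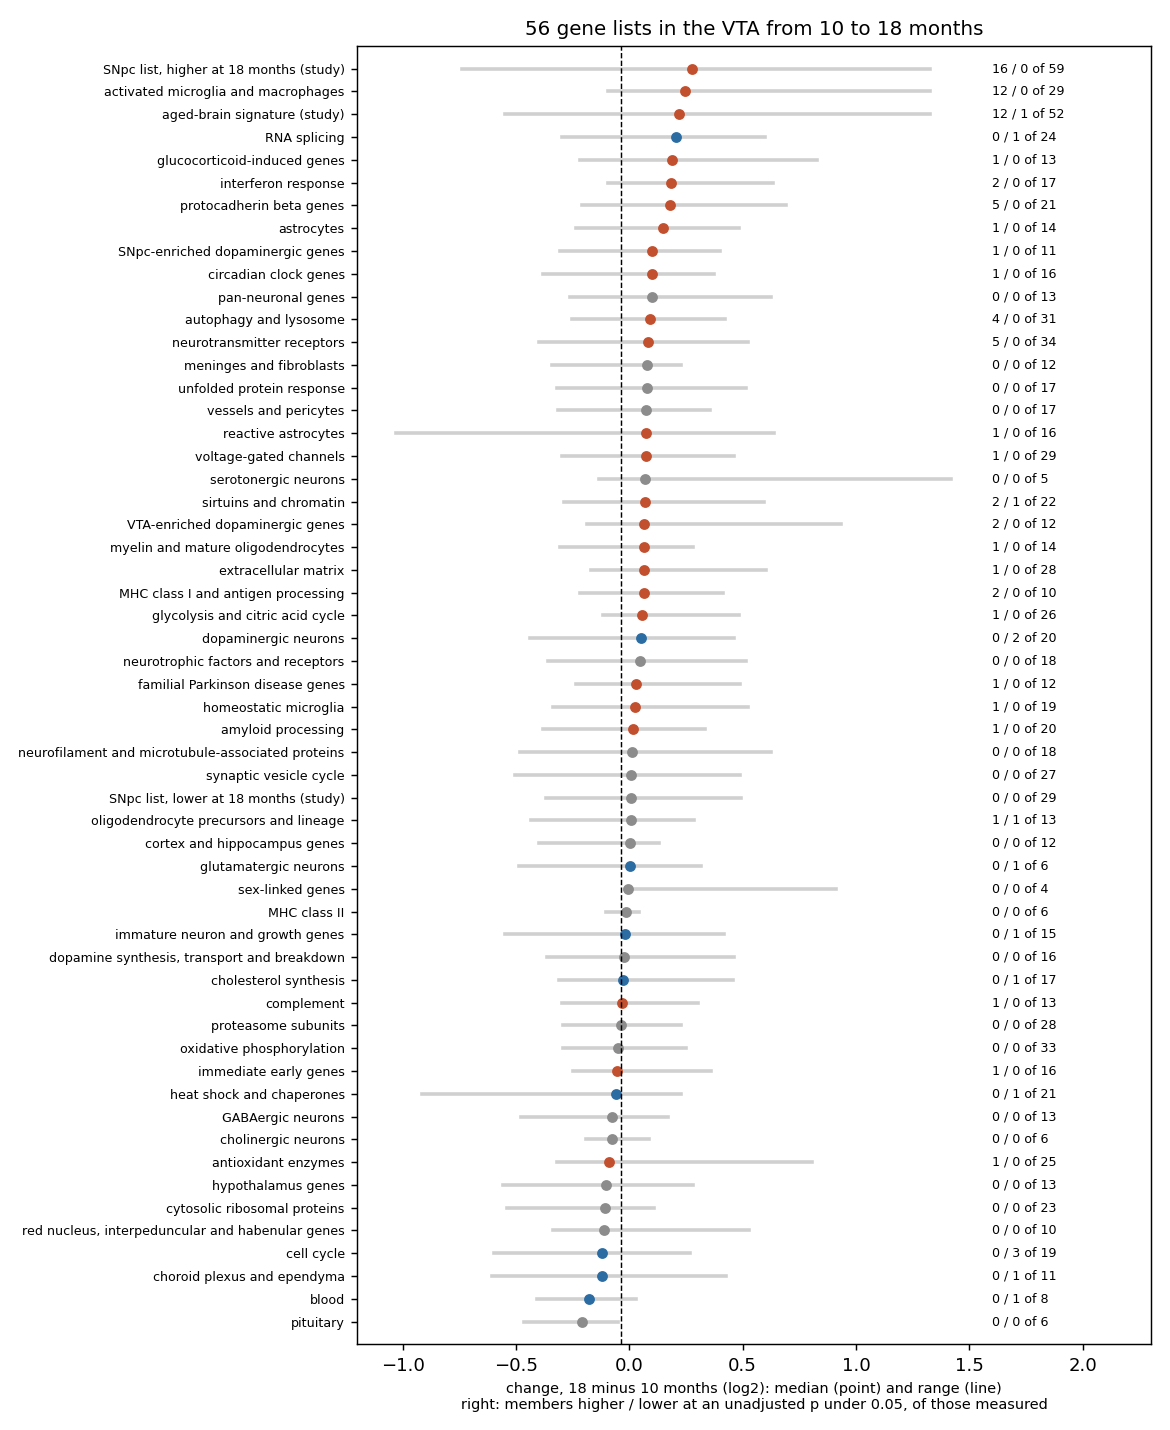
Median (point) and range (line) of the log2 change from 10 to 18 months (x axis) of the measured genes of 56 lists (y axis), with the counts of members higher and lower at an unadjusted p under 0.05 at the right; red marks lists with more higher, blue more lower and grey equal counts, and the dashed line is the median of all genes at −0.036. Medians run from −0.21 for pituitary genes to 0.28 for the genes listed as higher in SNpc.

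Lists of other places and cell types that a dissection could carry showed few members past that p. Among the measured genes of pituitary (6), blood (8), choroid plexus with ependyma (11), hypothalamus (13), and cortex with hippocampus (12), 0 were higher and 2 lower, the ciliary factor Foxj1 (−0.30 ± 0.096 SE) and the neutrophil protein S100a9 (−0.41 ± 0.15 SE). The medians of the first 3 were −0.21, −0.18 and −0.12, and the mean level of these 3 lists was between 5.00 and 5.93 on every array, in the range where the median of all genes was also below 0. Ttr, a protein of the choroid plexus, was at 6.20, 7.03, 8.64 and 6.01 at 10 months and at 5.83, 5.84, 6.65 and 7.13 at 18 months, so 10 months array 3 was high and the difference was −0.61 ± 0.65 SE. Xist, the RNA of the inactive X chromosome and so a marker of female cells, lay at its brightest probe set at 8.46, 8.85, 8.86 and 9.12 and then at 9.95, 10.62, 7.58 and 10.79. Arrays 1, 2 and 4 of 18 months were above all 10 months arrays and array 3 below them. Its other probe sets differed by 0.53, with the same arrays above and below, and by −0.14, where array 3 was again lowest but arrays 1 and 4 lay within the 10 months range. The sex of the mice is not given in the labels. Whether the makeup of the pools has a part in other differences was not tested.

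Of the 6 largest differences in each direction at an unadjusted p under 0.05, several followed the arrays that stood apart. Dusp6, a phosphatase that switches off the kinase ERK, gave 6.13, 6.31, 8.42 and 6.48 at 10 months against 7.79, 9.19, 7.28 and 8.85 at 18 months. The 3 highest values were those of 10 months array 3 and 18 months arrays 2 and 4, and the difference was 1.45 ± 0.54 SE. Rac3, a small GTPase of neurons, gave 8.996, 9.09, 6.98 and 8.66 against 7.30, 6.74, 7.62 and 6.82. Its 3 lowest values were on the same 3 arrays, and the difference was −1.31 ± 0.41 SE. Fcho2, a protein of forming endocytic pits, Stk25, a kinase of neuronal polarity, and Dmp1, a matrix protein of bone that is also on the aged-brain list, were at 1.20 ± 0.50, 1.16 ± 0.32 and 1.11 ± 0.44 SE. The 3 highest values of Fcho2 (8.37, 8.02 and 8.47) and of Dmp1 (6.79, 7.33 and 7.39) were also on these 3 arrays. Cap1, which recycles actin, was at 7.43, 7.18, 7.71 and 7.19 and then at 8.72, 9.20, 8.11 and 8.02, with no overlap and a difference of 1.13 ± 0.24 SE. Rec8, a cohesin of meiosis, the noncoding RNA Mirg and the heat shock protein Hspa1b, which has a near copy in the genome, were at −1.01 ± 0.28, −0.96 ± 0.39 and −0.91 ± 0.39 SE.

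**Figure D5:**
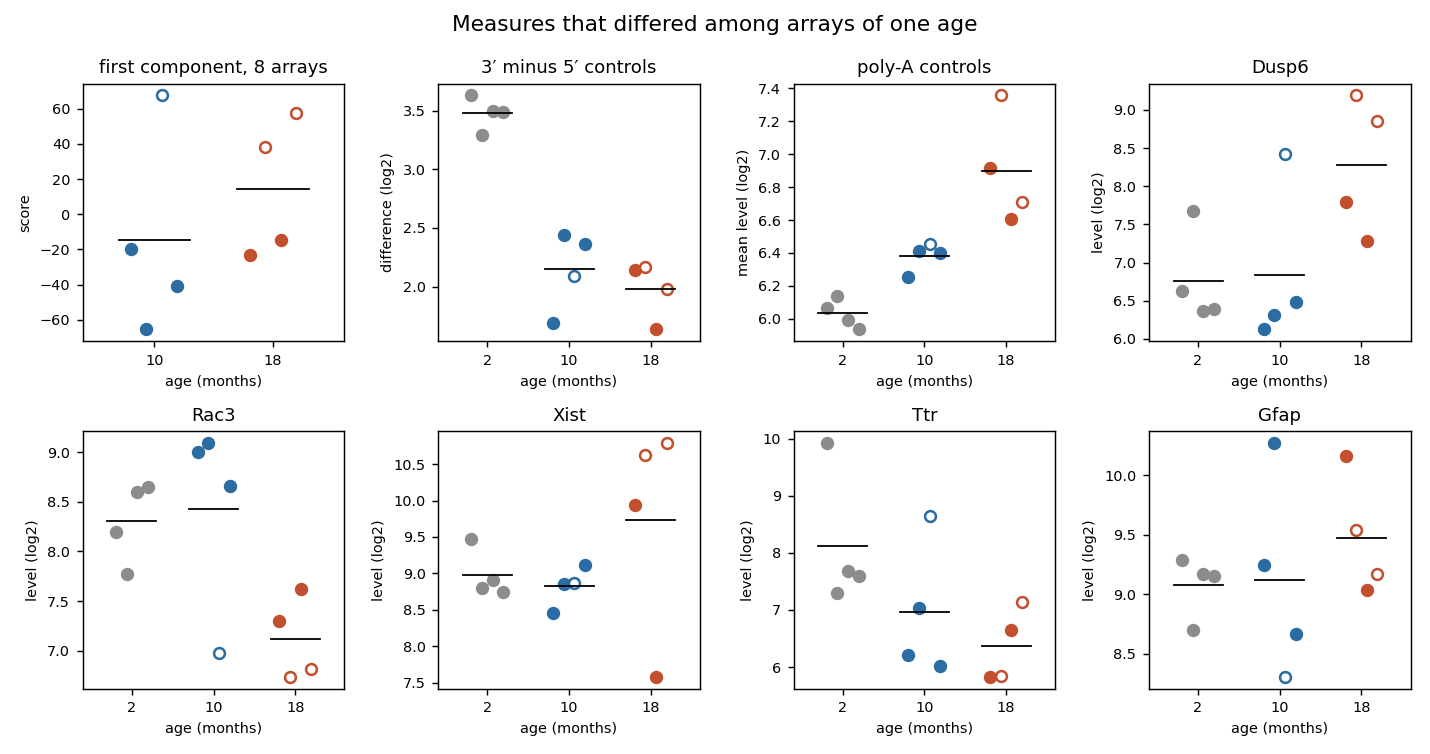
Score on the first component, control measures and the log2 level of Dusp6, Rac3, Xist, Ttr and Gfap (y axes) on each array by age in months (x axis); bars are means of 4 arrays and open points are 10 months array 3 and 18 months arrays 2 and 4. The open points are highest for the component and for Dusp6 and lowest for Rac3, and the poly-A controls of the ages do not overlap.

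Mid1, a ubiquitin ligase on microtubules whose gene crosses the end of the pairing region of the sex chromosomes, was the one named gene with a called change in the earlier interval and a difference of the opposite sign in the later. It lay at 7.31, 7.55, 7.56 and 7.58 at 2 months, at 6.59, 6.51, 6.59 and 6.69 at 10 months and at 7.26, 7.55, 7.30 and 7.05 at 18 months. The 10 months arrays were below all others. It fell by 0.88 ± 0.13 SE from 2 to 10 months (adjusted p = 0.0261, limma), its difference from 10 to 18 months was 0.69 ± 0.12 SE (adjusted p = 0.847), and the difference of the changes, 1.58 ± 0.21 SE, had an adjusted p of 0.165. Its weaker probe sets gave 0.055 and 0.068 for the later interval.

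Among other pathways, the genes of autophagy and the lysosome had 4 of 31 measured members higher, against 3.13% of all genes, and 0 lower, with a median of 0.091. They were Ulk2 and Atg5, which act in forming the autophagosome, Gusb, a lysosomal enzyme, and Ctss. Atg5 was at 8.32, 8.15, 8.45 and 8.48 and then at 8.82, 8.91, 8.48 and 8.83, where 18 months array 3 all but met the younger age, and its difference was 0.41 ± 0.12 SE. Weaker probe sets of Atg5 gave −0.010 and 0.076. The count was 8 without 10 months array 3, 2 without 10 months array 2 or 18 months array 1, 1 without 10 months array 4, 18 months array 2 or 18 months array 4, and 1 without the 3 arrays that stood apart. Of all genes 9.94% were higher without 10 months array 3, and 1.31% to 4% in the other fits named. Of 12 measured genes of familial Parkinson disease 1 was higher and 0 lower. It was Vps35, a subunit of the retromer that sorts endosomal cargo, at 11.63, 10.94, 11.54 and 11.28 and then at 11.95, 11.76, 11.81 and 11.84, a difference of 0.49 ± 0.15 SE. A weaker probe set of Vps35 gave −0.060. Oxidative phosphorylation (33 measured genes, median −0.051), the listed proteasome subunits (28, −0.035, without Psmd13) and cytosolic ribosomal proteins (23, −0.11) had 0 members higher and 0 lower. RNA splicing genes had a median of 0.21 with 20 of 24 positive (83.3%, against 55.9% in the brightest group of genes), yet 0 were higher and 1 lower, U2af1. Their mean level was 10.96, 10.74, 11.52 and 10.80 at 10 months and 11.02, 11.37, 10.90 and 11.47 at 18 months, highest on the 3 arrays that stood apart.

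The remaining genes named by the rule are given by their differences. Among the 10 higher with the smallest p were Tfdp2, a partner of E2F factors (0.45 ± 0.089 SE), and Ap1s3, a subunit of a clathrin adaptor (0.74 ± 0.16 SE). Among the 10 lower were Nr2c2ap (−0.43 ± 0.094 SE), the transcript 2900060N12Rik (−0.57 ± 0.12 SE), the sugar transporter Slc5a9 (−0.43 ± 0.10 SE) and P2rx3, an ATP-gated channel of sensory neurons (−0.45 ± 0.12 SE). List members over 1.3-fold higher at that p were, beside those above, Txnrd1, a thioredoxin reductase (0.57 ± 0.19 SE), the inhibitory Smad6 (0.59 ± 0.21 SE), the potassium channel subunit Kcns3 (0.40 ± 0.16 SE), the proteoglycan Spock1 (0.61 ± 0.26 SE), the kinase Pdk4 that restrains pyruvate dehydrogenase (0.46 ± 0.20 SE), and the developmental factor Eya4 (0.48 ± 0.21 SE). The signalling ligand Bmp4 (−0.40 ± 0.15 SE) was on the lower side. All of these had an adjusted p of 0.847 by limma. A second probe set of Spock1, of like brightness (8.86 against 8.70 at 10 months), gave −0.20. At the first, the 3 highest values (9.21, 9.73 and 9.87) were on the 3 arrays that stood apart. Other probe sets ran from −0.13 to 0.022 for Txnrd1, from −0.20 to 0.18 for Eya4 and from −0.20 to 0.13 for Slc5a9, and that of Kcns3 gave 0.46.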

How the data were processed

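RNA of the VTA was amplified by the authors in 2 cycles of labelling from a small amount of total RNA and hybridised to Affymetrix mouse arrays, 4 pools of 5 mice at each of 3 ages. The authors deposited one log2 value per probe set and array, normalised with RMA. Their processing notes list limma, version 3.4.5, as well. Scanner files were not analysed here. An array has no read depth, and the number of arrays limits precision. Of 45101 probe sets, 64 controls were left out. Genes were named through the array's annotation, in which 34945 tested probe sets had 1 gene, 932 several and 9160 none; only those with 1 gene were named, at the brightest probe set (18193 genes).

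All ages were fitted with limma 3.58.1 in R 4.3.3, estimating 1 mean for each age without covariates. Young arrays 3 and 4, which differed less than any other pair of one age, entered as their mean, 1 sample. Benjamini-Hochberg adjustment ran over 45037 probe sets, and a call needed an adjusted p under 0.05 and over 1.3-fold, the thresholds of the study. P-values rest on the spread between arrays of one age. Each pool was on 1 array, so differences between pools and those from labelling or hybridisation cannot be told apart. Control measures were compared by exact permutation. The code was tested on simulated data.

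The comparison, the gene lists and the tests were chosen with earlier results of these data known. Genes named are the 10 higher and 10 lower with the smallest p among those over 1.3-fold, the 6 with the largest difference each way at an unadjusted p under 0.05, list members at that p and over 1.3-fold, and 9 genes named whatever their values (Ddx3y was not measured by a probe set with 1 gene). Other genes in the text are list members named as examples after their values were seen. Alternatives were the 8 arrays alone, 12 separate arrays with and without the replicate number as a block, median centring, a brightness filter, other covariates, weights and priors, other ways of joining probe sets, and leaving out arrays.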

Additional observations from a re-analysis of the deposited data

Results flagged for a closer look

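In 9 of 156 groups of 4 values examined, 1 array lay so far from the other 3 of its age that the gap as a share of the whole range passed Dixon's critical value at the 95% level; chance alone gives about 1 in 20. Of the 9, 4 were on 10 months array 3 and 4 on 10 months array 2. On array 3 the share of the range was 0.869 for Mpeg1 (9.84 against 9.10 to 9.19), 0.891 for Rec8 (6.76 against 7.91 to 8.05), 0.847 for Dusp6 (8.42 against 6.13 to 6.48) and 0.855 for Spock1 (9.21 against 8.46 to 8.57). On array 2 it was 0.848 for Fam171a2 (8.43 against 7.89 to 7.98), 0.836 for 2900060N12Rik (7.58 against 7.34 to 7.38), 0.921 for Gabrg1 (9.14 against 9.66 to 9.71) and 0.859 for Adcyap1 (8.38 against 9.19 to 9.32). The remaining one was Pcdhb17 on 18 months array 3, at 0.905 (7.94 against 8.36 to 8.40). The causes were not tested.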

How the results depend on the processing

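The 1 call, Pdxdc1, was also made with median centring, 12 separate arrays, array weights, a trended robust prior and without the 3 arrays that stood apart. It was 0 with the 8 arrays alone, with the brighter part of the probe sets (a mean level above the median) (which does not hold it), with the 3′ minus 5′ gap or the poly-A controls as a covariate and with the mean of all probe sets of a gene, and 0 to 2 with an array left out. The causes were not tested. With the replicate number as a block it was 0 (Pdxdc1 2.20, adjusted p 0.234 by limma). Of 4 arrays of 18 months, 0 correlated best with their own number. That count cannot exclude a pairing, since it rests on 4 arrays and 61.2% of the variance within ages lay in 1 component. With the first component of the deviations from the age means as a covariate, chosen after seeing the data and taken from the same values so that errors are understated, 402 probe sets were called. The 2280 probe sets at an unadjusted p under 0.05 became 1071 in the brighter part, which holds fewer probe sets, 1301 with the poly-A covariate, 6998 with array weights, 7834 with the component and 937 to 8800 with an array left out. List genes higher at that p, 56, were 36 with the poly-A covariate, 120 with weights, 140 with the component, 85 by any probe set and 39 to 130 with an array left out. Those lower, 14, were 9 in the brighter part, 60 with weights, 38 without the 3 arrays, 76 with the component, 32 by any probe set and 8 to 88 with an array left out. For the difference of the intervals, the 0 calls were 2 with 12 arrays, 1 without the 3 arrays and 127 with the component, and the 2463 at an unadjusted p were 1351, 6971, 5090 and 7202 in the brighter part, with weights, without the 3 arrays and with the component, and 1500 to 7757 with an array left out. Groups that do not overlap, 2.73% of probe sets, were 28.1% without the 3 arrays, where fewer arrays have to differ, and 3.43% to 16.7% with an array left out. Signs turned for Th (−0.035 with the 3′ covariate, −0.018 without the 3 arrays, −0.021 to 0.064 with an array left out), Xist (−0.35 with the poly-A covariate, −0.046 without the 3 arrays), Mirg (0.020), Pdk4 (−0.028) and Mbp (0.020) with the poly-A covariate, and the hybridisation controls (−0.53 to 0.084 with an array left out). The number of arrays and the spread of the 10 months arrays limit every value; arrays hold no read depth.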
